A study of Mus musculus with 12 samples.

Results

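The genes described are 6 chaperones that mouse testis is known for and 4 of their relatives found in all tissues, 10 of the 23235 genes measured. They were taken by symbol from the HSP70 family (Hspa2, Hspa1l, Hspa8, Hspa5), its larger HSP110 branch (Hspa4l), the calreticulins (Calr, Calr3), the calnexins (Canx, Clgn) and the protein disulfide isomerases (Pdilt), by a rule that uses symbols alone, although the genes were proposed with earlier results of these data known. RNA was measured in spermatocytes of C57BL/6 mice at 2 stages of the first meiotic prophase, pachytene and the earlier leptotene/zygotene (LZ), in cells labelled Rnaseh1 knock-out (KO-labelled) or wild type (WT). There were 3 libraries in each of 4 groups, KO-labelled pachytene, WT pachytene, KO-labelled LZ and WT LZ, or 12 in all. The cells had been sorted by fluorescence with a check of purity, and amplified cDNA from polyadenylated RNA was sequenced. Neither the allele of the knock-out nor any driver is named in the sources used here.

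Chaperones of the HSP70 family bind unfolded stretches of other proteins and release them in cycles of ATP use, with J-domain proteins and nucleotide exchange factors as partners. In the endoplasmic reticulum (ER), the calnexin cycle holds newly made glycoproteins through their sugar chains while disulfide isomerases join their cysteines. Male germ cells carry testis versions of many of these proteins. HSPA2 is needed by mouse spermatocytes to complete meiosis, and calmegin (Clgn), Calr3 and Pdilt are needed in mice to mature surface proteins with which sperm reach and bind the egg.

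Levels are FPKM (fragments per kilobase of transcript, relative to the mapped total), which the authors had normalized with ERCC spike-in RNA. Over all genes these values summed to 4811570 to 6702160 in KO-labelled pachytene, 3319970 to 4183730 in WT pachytene, 430372 to 512468 in KO-labelled LZ and 609831 to 885259 in WT LZ libraries, and 11146 to 15290 genes reached 1 FPKM. All KO-labelled sums lay above all WT sums at pachytene and below them at LZ. Where groups are said below not to overlap, the share of all genes without overlap was not counted. Read counts were not used here, and sequencing depth is therefore unknown. Correlations of log2 values between libraries of a group were 0.923 to 0.952 in KO-labelled LZ and 0.967 to 0.975 in the other groups. Rnaseh1, the gene named by the labels, was 80.2 ± 12.97 FPKM in KO-labelled and 53.7 ± 2.74 FPKM in WT pachytene libraries, and 14.7 ± 3.62 FPKM in KO-labelled and 17.8 ± 2.39 FPKM in WT LZ libraries (SD, n = 3 each). It was thus not lower in the KO-labelled libraries beyond the spread (limma adjusted p = 0.0638 at pachytene and 0.407 at LZ), so the labels are kept as labels. The labels do not say that replicates came from separate animals, and p-values measure the spread between these libraries.

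Changes are log2 changes of FPKM + 1 from a limma fit over all 12 libraries and 15400 genes, called at a Benjamini-Hochberg adjusted p under 0.05. All 10 chaperone genes passed the filter of 1 FPKM in at least 3 libraries. On the spike-in scale the median change over all genes (log2) was far from 0: 1.64 for pachytene over LZ in WT, 2.29 in KO-labelled cells, 0.37 for KO-labelled over WT at pachytene and -0.43 at LZ. Results are therefore also given after median-ratio scaling, in which a library's factor is the median, over genes, of its values relative to each gene's geometric mean.

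The markers of the sorted stages were present. The summed level of 20 pachytene genes was 2.34 to 2.66% of the library sum in KO-labelled and 1.99 to 2.15% in WT pachytene libraries, and 0.825 to 1.00% in KO-labelled and 0.929 to 1.24% in WT LZ libraries. That of 18 LZ genes was 0.169 to 0.231% in KO-labelled and 0.242 to 0.254% in WT pachytene libraries, and 0.437 to 0.608% in KO-labelled and 0.389 to 0.537% in WT LZ libraries. The LZ genes did not all move together between the stages. In WT cells 6 were called higher and 5 lower at pachytene than at LZ, and in KO-labelled cells 6 and 8. After median-ratio scaling these counts were 1 and 11 in WT and 2 and 14 in KO-labelled cells. Sycp3, a large part of the sum, had 6444 FPKM in WT pachytene and 2113 FPKM in WT LZ cells. RNA of later cells was present too, and differed with the label. The summed level of 20 round spermatid genes (protamines, transition proteins, acrosome and tail genes) was 0.0406 to 0.237% of the sum in KO-labelled and 1.01 to 1.54% in WT pachytene libraries. It was 0.193 to 1.52% in KO-labelled and 2.29 to 3.87% in WT LZ libraries. Of these 20 genes, 0 were called higher and 19 lower in KO-labelled pachytene cells, and 0 higher and 11 lower in KO-labelled LZ cells. After median-ratio scaling 17 were called lower at pachytene and 0 at LZ. Prm1 had 3006 FPKM in KO-labelled and 19740 FPKM in WT pachytene cells, and 1294 FPKM in KO-labelled and 10080 FPKM in WT LZ cells. None of the 20 genes was at 0 throughout any group. Of the 20 pachytene genes, 13 were called higher and 0 lower in KO-labelled pachytene cells (median log2 change 0.88), and 0 higher and 13 lower in KO-labelled LZ cells (-0.97). After median-ratio scaling 3 were called higher at pachytene and 1 lower at LZ. Markers of earlier cells differed with the label at pachytene as well. There 2 of 15 spermatogonia genes were called higher and 11 lower (median log2 change -2.15), and 1 and 10 after median-ratio scaling. Of the 18 LZ genes 2 were called higher and 8 lower, and 0 and 8 after that scaling. At LZ, 1 spermatogonia gene was called lower and 0 LZ genes either way on the spike-in scale.

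Among the 10 chaperone genes the germ-cell members fell into 2 kinds. Hspa2, Hspa4l and Clgn were abundant at pachytene, where each was higher in KO-labelled than in WT cells, while Hspa1l, Calr3 and Pdilt were scarce and had lower mean levels in KO-labelled cells at both stages. The log2 changes of Hspa2, Hspa4l and Clgn at pachytene (0.97, 0.81 and 1.16) stood beside a median of 0.88 for the 20 pachytene genes, and the part of a difference in stage composition in them was not tested. On the spike-in scale 4 of the 10 were called higher in KO-labelled than in WT pachytene cells (Hspa2, Hspa4l, Canx and Clgn), against 24.6% of all genes, and 2 lower (Calr3 and Pdilt), against 14.3%. After median-ratio scaling Hspa2 and Clgn were called higher, against 3.57% of all genes, and Calr3 and Hspa8 lower, against 9.62%. The median log2 change of the 10 was 0.55 against 0.37 for all genes, and 0.21 after median-ratio scaling, where the median of all genes was 0.05. At LZ, 0 were called higher in KO-labelled cells (0.136% of all genes) and 2 lower, Hspa1l and Clgn (12.9% of all genes). After median-ratio scaling 0 were called higher (0.39% of all genes) and 0 lower (0.688%), and at an unadjusted p under 0.05 limma called 5184 genes on the spike-in scale. The median log2 change of the 10 at LZ was -0.59, against -0.43 for all genes. The counts over all genes moved with single libraries. The 3784 genes called higher at pachytene fell to 286 without KO-labelled pachytene replicate 1, 357 without replicate 2, 926 without WT pachytene replicate 1 and 762 without replicate 2, and the 2196 called lower to 1075, 985, 1174 and 1299 in the same fits. The 1992 genes called lower at LZ fell to 6 without WT LZ replicate 1, 4 without WT LZ replicate 2, 356 without KO-labelled LZ replicate 2, 89 without KO-labelled LZ replicate 3 and 0 with only the groups compared.

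**Figure D1:**
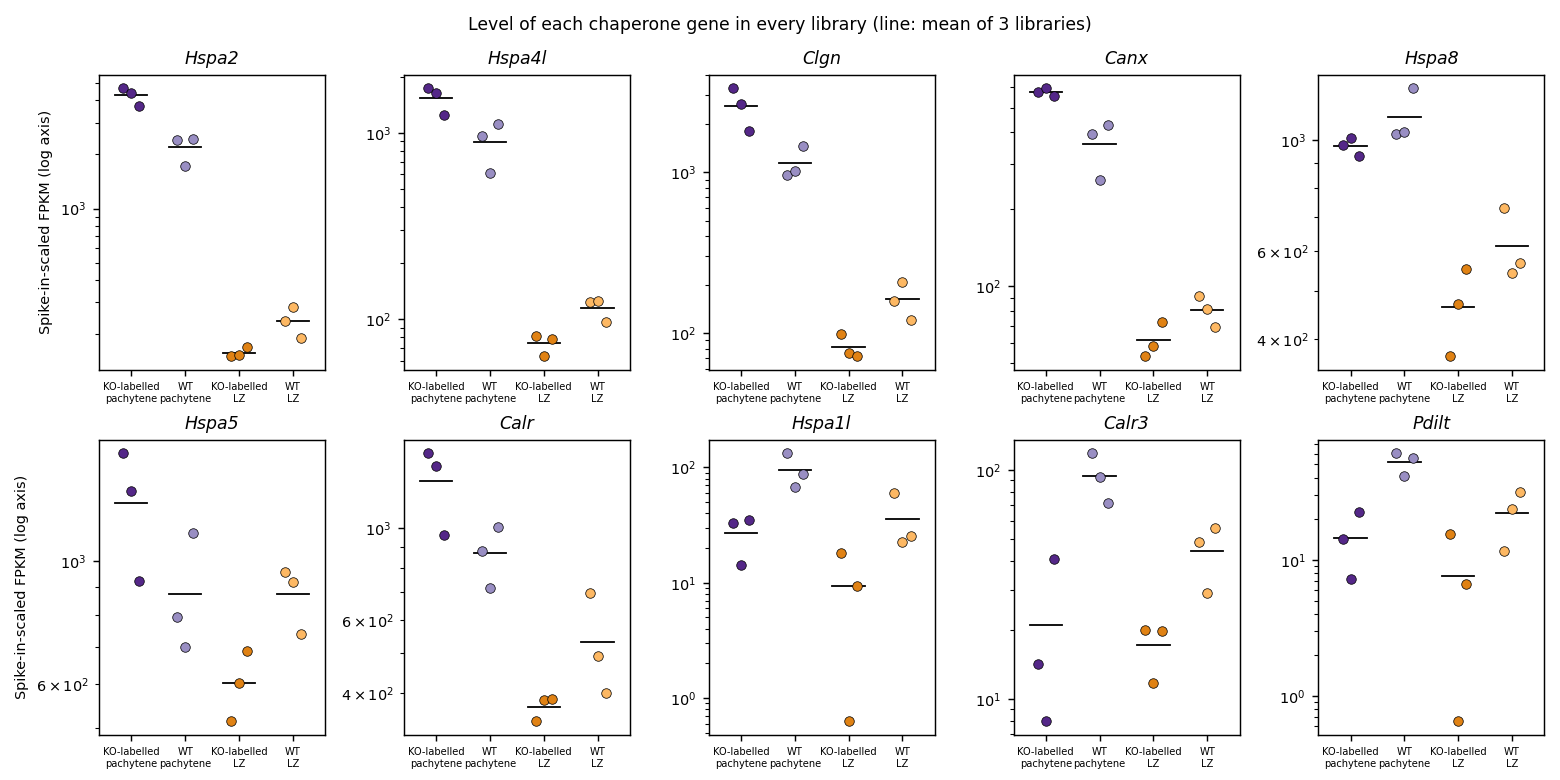
Spike-in-scaled FPKM (log axis) of each of the 10 chaperone genes in the 3 libraries of each group, with a line at the mean. The 3 KO-labelled pachytene libraries lie above the WT pachytene libraries for Hspa2, Hspa4l, Canx and Clgn, below them for Hspa1l, Hspa8, Calr3 and Pdilt, and overlap them for Hspa5 and Calr. The sums over all genes also lie above in these KO-labelled libraries, and the share of all genes without overlap was not counted.

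Between the stages, 7 of the 10 were called higher at pachytene than at LZ in WT cells (80.9% of all genes) and 0 lower (0.487%). In KO-labelled cells 8 were called higher (76.8% of all genes) and 0 lower (2.83%). With most genes higher on that scale, median-ratio scaling separates the members further. In WT cells it called Hspa2, Hspa4l and Clgn higher (20.4% of all genes) and Hspa8, Hspa5 and Calr lower (17.8%). In KO-labelled cells it called the same 3 genes higher (31.7% of all genes) and Hspa8, Hspa5, Calr and Calr3 lower (29.3%). The order of the members by level changed with the stage. Hspa5, Hspa8 and Calr had the highest mean levels in both LZ groups, with Hspa2 next, whereas Hspa2 and Clgn had the highest in both pachytene groups. In WT pachytene libraries, however, Clgn (mean 1143 FPKM) and Hspa8 (1111 FPKM) overlapped, and Hspa8 lay above Clgn in replicates 1 and 2. Calr, Hspa5 and Hspa8 overlapped one another in KO-labelled pachytene libraries, while in WT pachytene libraries Hspa5 overlapped both and Hspa8 lay above Calr. Hspa1l, Calr3 and Pdilt were the lowest in all 4 groups and overlapped one another in each group except WT pachytene, where Pdilt lay below both.

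Hspa2, the HSP70 of meiotic and later male germ cells, had the highest level of the 10 at pachytene. It had 4688, 4391 and 3713 FPKM in KO-labelled pachytene libraries and 2397, 1726 and 2439 FPKM in WT pachytene libraries. In LZ libraries it had 151, 152 and 169.9 FPKM in KO-labelled and 236, 282 and 191 FPKM in WT cells. All KO-labelled libraries lay above all WT libraries at pachytene and below them at LZ, as did the sums over all genes. The KO-labelled level was 1.95 times the WT level at pachytene (log2 change 0.97, SE 0.20, adjusted p = 0.00829). That call was kept when any 1 library was left out (0.81 to 1.07, adjusted p at most 0.037) and after median-ratio scaling (0.63, adjusted p = 0.0204), but not on values as a share of the library sum (0.40, adjusted p = 0.188). At LZ the change was -0.56 (adjusted p = 0.0762) and turned to 0.021 after median-ratio scaling. It passed without WT LZ replicate 3 (-0.71, adjusted p = 0.0367). The pachytene level was 27.0 times the LZ level in KO-labelled and 9.26 times in WT cells (log2 changes 4.74 and 3.21, SE 0.20 each). By rank of FPKM among the genes of a library, Hspa2 stood at 265 to 295 in KO-labelled and 272 to 479 in WT pachytene libraries, and at 547 to 612 in KO-labelled and 573 to 690 in WT LZ libraries.

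Hspa4l, an HSP110-type protein that acts as a nucleotide exchange factor for HSP70, followed Hspa2 closely. It had 1743, 1628 and 1246 FPKM in KO-labelled pachytene and 963, 611 and 1115 FPKM in WT pachytene libraries. At LZ it had 81.1, 63.3 and 78.5 FPKM in KO-labelled and 123, 125 and 96.2 FPKM in WT libraries. The groups did not overlap at either stage. The log2 change at pachytene was 0.81 (SE 0.24, adjusted p = 0.0238). The call was lost without KO-labelled pachytene replicate 1 (0.71, adjusted p = 0.0952) or 2 (0.76, 0.0812), without WT pachytene replicate 2 (0.55, 0.0883), and after median-ratio scaling (0.46, 0.0855). The stage changes were 4.35 in KO-labelled and 2.92 in WT cells, and both were called higher after median-ratio scaling as well (1.37 and 0.87).

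Hspa8, the constitutive cytosolic HSP70 of all cells, had the smallest change of the 10 between the genotypes at pachytene on the spike-in scale, but not under the other scalings. It had 978, 1009 and 930.5 FPKM in KO-labelled pachytene and 1025, 1037 and 1269.8 FPKM in WT pachytene libraries, and the groups did not overlap. In LZ libraries its levels were 370.1, 470.2 and 553 FPKM in KO-labelled and 729.9, 543 and 568 FPKM in WT libraries, which overlapped. The change at pachytene was -0.19 (SE 0.20, adjusted p = 0.445). With median-ratio scaling Hspa8 was called lower (-0.53, adjusted p = 0.0428), as it was on shares of the library sum (-0.76, adjusted p = 0.0108). Its pachytene level was 2.09 times the LZ level in KO-labelled and 1.81 times in WT cells, both called higher, but median-ratio scaling turned these changes to -1.90 and -1.19, both called lower. The value of Hspa8 is uncertain, because 73.2% of the 50-base words of its transcript also occur in transcripts of other genes, most of them in the annotated gene Gm15459 (70.0%).

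Hspa1l, the HSP70 that mouse testis makes mainly after meiosis, was scarce. It had 32.8, 14.4 and 34.7 FPKM in KO-labelled pachytene and 133, 67.9 and 86.9 FPKM in WT pachytene libraries. At LZ it had 18.0, 0.626 and 9.40 FPKM in KO-labelled and 59.6, 22.5 and 25.6 FPKM in WT libraries. The KO-labelled libraries lay below the WT libraries at both stages, and KO-labelled LZ replicate 2 was far below the rest. The LZ change was -2.30 (SE 0.70, adjusted p = 0.0483) and -1.26 without that replicate (adjusted p = 0.119). The LZ call was lost in 9 of 12 fits that left out 1 library, with adjusted p up to 0.188 without WT LZ replicate 1, and stayed only without KO-labelled LZ replicate 1 or KO-labelled pachytene replicate 2 or 3. At pachytene the change was -1.82 (SE 0.70, adjusted p = 0.0540), which passed without KO-labelled LZ replicate 1 (adjusted p = 0.0316) or 2 (0.00827). Neither change passed after median-ratio scaling (-1.99 at LZ and -2.08 at pachytene, adjusted p = 0.222 and 0.112). Over the stages it was called higher in KO-labelled cells on the spike-in scale (1.95, adjusted p = 0.0202). This call was lost without KO-labelled LZ replicate 2 (0.91, adjusted p = 0.0898) and without KO-labelled pachytene replicate 1 (1.77, 0.0590) or 3 (1.73, 0.0617), and the change was -0.63 after median-ratio scaling. In WT cells its stage change of 1.47 did not pass (adjusted p = 0.0668). It passed without KO-labelled LZ replicate 1 (0.0344) or 2 (0.00496) or WT LZ replicate 1 (1.90, 0.0406), with a pseudocount of 5 (1.36, 0.0162) and with only the groups compared (0.000843). The strand of reads is not stated, and the antisense gene Gm10501 overlaps 1778 of the 2472 exon bases of Hspa1l, so reads of the gene and its partner cannot be told apart. A further 9.57% of its 50-base words occur in Hspa1a.

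In the ER, Hspa5 (BiP, the HSP70 of that compartment) had 1568, 1339 and 921 FPKM in KO-labelled pachytene and 794, 701 and 1126 FPKM in WT pachytene libraries, which overlapped. The LZ levels were 514, 604 and 689 FPKM in KO-labelled and 959, 918 and 739 FPKM in WT libraries, which did not. Neither change passed the test (0.54, adjusted p = 0.0831 at pachytene, and -0.53, adjusted p = 0.140 at LZ), but the pachytene change did without KO-labelled replicate 3 (0.76, adjusted p = 0.0255) or WT replicate 3 (0.74, 0.0396). In WT cells Hspa5 had nearly the same level at both stages, 874 ± 223 FPKM at pachytene and 872 ± 117 FPKM at LZ (SD, n = 3 each), while 80.9% of all genes were called higher. After median-ratio scaling it was called lower at pachytene in KO-labelled (-1.93, adjusted p = 2.31e-06) and in WT cells (-2.07, 1.97e-05). Its FPKM rank was 829 to 965 in KO-labelled and 755 to 1037 in WT pachytene libraries, against 104 to 133 in KO-labelled and 119 to 151 in WT LZ libraries.

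Calr, the soluble lectin chaperone of the ER, had 1519, 1414 and 962 FPKM in KO-labelled pachytene and 883, 717 and 1009 FPKM in WT pachytene libraries, which overlapped. At LZ it had 341, 383 and 385 FPKM in KO-labelled and 699, 490.4 and 399 FPKM in WT libraries, with no overlap. Its changes between genotypes did not pass at pachytene (0.56, adjusted p = 0.0737) or at LZ (-0.48, adjusted p = 0.178), though the pachytene change passed without KO-labelled replicate 3 (0.77, adjusted p = 0.0264). Its stage change was 1.78 in KO-labelled cells and 0.74 in WT cells (adjusted p = 0.0119), the second of which was lost without WT LZ replicate 3 (0.56, adjusted p = 0.0571) or WT pachytene replicate 3 (0.63, 0.0517). Median-ratio scaling turned both to calls of lower (-1.20 in KO-labelled and -1.31 in WT cells). Its testis relative Calr3, a lectin-like protein of the germ-cell ER, had 14.3, 7.97 and 40.8 FPKM in KO-labelled pachytene and 118, 92.7 and 71.5 FPKM in WT pachytene libraries. At LZ its levels were 19.99, 11.8 and 19.8 FPKM in KO-labelled and 48.6, 29.0 and 55.9 FPKM in WT libraries. The KO-labelled libraries lay below the WT libraries at both stages.

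Calr3 had the largest change of the 10 between the genotypes at pachytene: the KO-labelled level was 0.223 times the WT level (log2 change -2.38, SE 0.46, adjusted p = 0.00549). The call was kept in all 12 fits that left out 1 library (-2.99 to -1.88), after median-ratio scaling (-2.58, adjusted p = 0.0108) and on shares of the library sum (-2.60, adjusted p = 0.00763). At LZ its change was -1.31 (adjusted p = 0.0701), which among the fits that left out 1 library passed without KO-labelled pachytene replicate 2 (adjusted p = 0.0464) or 3 (0.0220). In WT cells Calr3 was called higher at pachytene than at LZ (1.09, adjusted p = 0.0415), a call lost without WT LZ replicate 1 (1.17, adjusted p = 0.0594) or 2 (0.81, 0.155), or without WT pachytene replicate 1 (0.91, 0.126) or 2 (1.08, 0.0823). In KO-labelled cells the stage change was 0.01 (adjusted p = 0.981), and -2.75 after median-ratio scaling (adjusted p = 0.000641).

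Pdilt, the testis disulfide isomerase-like protein that works with calmegin in mice, had 14.2, 7.19 and 22.2 FPKM in KO-labelled pachytene and 60.4, 41.0 and 56.1 FPKM in WT pachytene libraries, and all KO-labelled values lay below the WT values. At LZ it had 15.4, 0.653 and 6.68 FPKM in KO-labelled and 11.6, 23.6 and 31.2 FPKM in WT libraries, which overlapped. The pachytene change was -1.89 (SE 0.66, adjusted p = 0.0388). That call was lost without KO-labelled pachytene replicate 1 (-1.94, adjusted p = 0.0979) or 2 (-1.49, 0.128) and without WT pachytene replicate 1 (-1.78, 0.103), 2 (-2.06, 0.0754) or 3 (-1.83, 0.0745), and after median-ratio scaling (-2.08, 0.108). At LZ the change was -1.86 (adjusted p = 0.0715), and it passed without KO-labelled LZ replicate 1 (-2.59, adjusted p = 0.0160). Its stage changes, 1.26 in KO-labelled and 1.30 in WT cells, did not pass (adjusted p = 0.0920 and 0.0821), and their direction turned after median-ratio scaling. In the fits that left out 1 library the WT stage change passed without KO-labelled LZ replicate 1 (adjusted p = 0.0385) or 2 (0.0118), and the KO-labelled one without KO-labelled LZ replicate 1 (1.999, 0.00755) or KO-labelled pachytene replicate 2 (1.66, 0.0436). The WT change also passed with a pseudocount of 5 (1.14, 0.0226) and with only the groups compared (0.00168).

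The levels of Hspa1l, Calr3 and Pdilt and the share of round spermatid genes were both lower on average in KO-labelled cells at each stage, but did not follow each other in every library. KO-labelled LZ replicate 2, in which Hspa1l and Pdilt were below 1 FPKM, had a spermatid share of 0.193%, against 1.52% and 0.543% in KO-labelled LZ replicates 1 and 3. Among KO-labelled pachytene libraries, replicate 2 had the lowest level of all 3 genes and the lowest spermatid share, 0.0406%, against 0.136% in replicate 1 and 0.237% in replicate 3. Replicate 3 had the highest of each. In FPKM Calr3 was nearly equal in KO-labelled LZ replicates 1 and 3, which differ in that share. As a share of the library sum, Calr3 was highest in replicate 1 and lowest in replicate 2, as the spermatid share was. In WT pachytene libraries the spermatid share was 1.54, 1.24 and 1.01% in replicates 1, 2 and 3. Calr3 fell in the same order there, while Hspa1l and Pdilt were lowest in replicate 2. In WT LZ libraries the share was 3.87, 2.29 and 2.68% in replicates 1, 2 and 3, and replicate 1 had the highest Hspa1l, the lowest Pdilt and a Calr3 level between the others. In pooled RNA of sorted cells such as these, fewer cells of a type and less RNA per cell cannot be told apart, and the part of spermatid RNA in the levels of the 3 genes was not tested. Pdilt also overlaps the antisense gene Gm37518 over 138 of its 2146 exon bases.

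Canx, the membrane-bound lectin chaperone, had 575, 596 and 556 FPKM in KO-labelled pachytene and 394, 260.3 and 428 FPKM in WT pachytene libraries, which did not overlap. In LZ cells the levels were 53.3, 58.2 and 72.7 FPKM in KO-labelled and 91.3, 81.7 and 69.1 FPKM in WT libraries, which did. The change at pachytene was 0.70 (SE 0.22, adjusted p = 0.0274). The call was lost without KO-labelled pachytene replicate 1 (0.70, adjusted p = 0.0851) or 2 (0.68, 0.0883), without WT pachytene replicate 1 (0.78, 0.0521) or 2 (0.49, 0.0990), and after median-ratio scaling (0.36, 0.122). Its stage changes of 3.22 in KO-labelled and 2.12 in WT cells were 0.25 and 0.08 after median-ratio scaling, neither of them called.

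Clgn, which encodes calmegin, the testis counterpart of calnexin, had 3343, 2641 and 1804 FPKM in KO-labelled pachytene and 963, 1014 and 1453 FPKM in WT pachytene libraries. The LZ libraries had 97.9, 74.6 and 71.7 FPKM in KO-labelled and 159, 206 and 121 FPKM in WT libraries. It was above all WT libraries in KO-labelled cells at pachytene and below them at LZ. The pachytene level was 2.27 times the WT level (log2 change 1.16, SE 0.27, adjusted p = 0.0120), larger than the change of 97.7% of the genes tested. The call was lost without KO-labelled pachytene replicate 1 (0.96, adjusted p = 0.0550), was kept after median-ratio scaling (0.81, adjusted p = 0.0337) and was lost on shares of the library sum (0.59, 0.104). At LZ its change was -0.96 (SE 0.27, adjusted p = 0.0370). That call was lost without KO-labelled LZ replicate 2 (-0.91, adjusted p = 0.0998) or 3 (-0.88, 0.0869), without WT LZ replicate 1 (-0.96, 0.119) or 2 (-0.77, 0.142), and after median-ratio scaling (-0.38, 0.369). The stage change of 4.95 in KO-labelled cells was the largest of the 10, against 2.82 in WT cells.

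**Figure D2:**
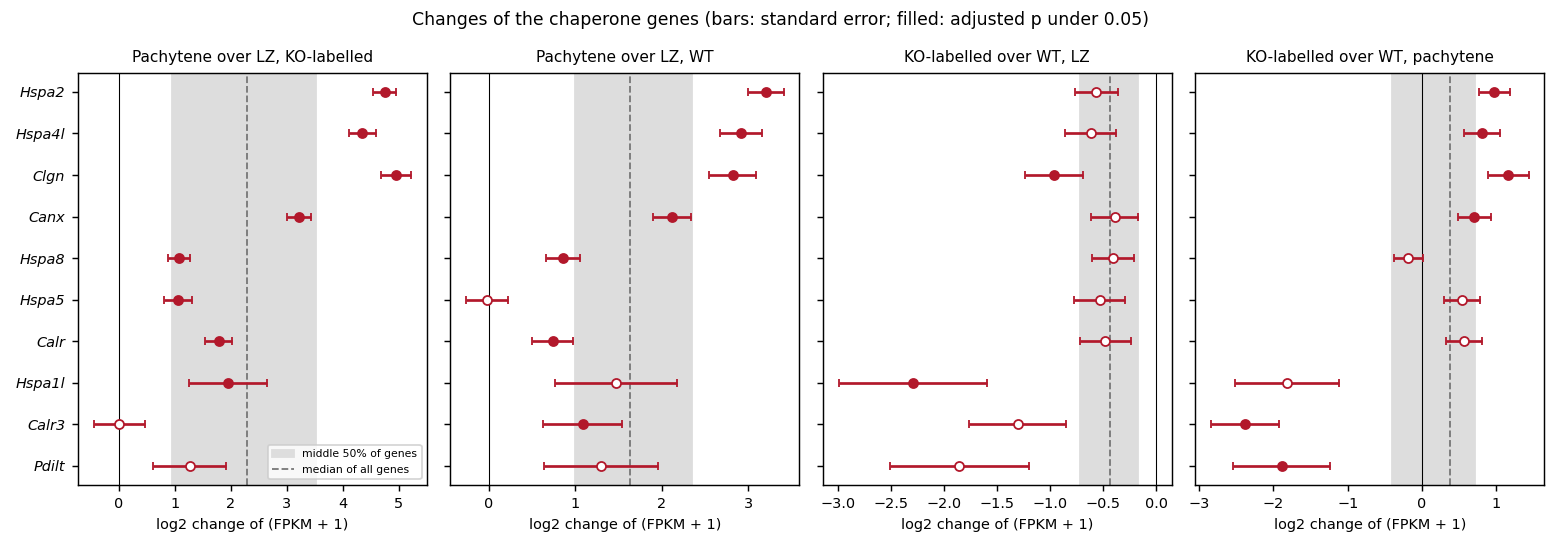
Log2 change with its standard error for each chaperone gene in 4 comparisons, beside the median of all genes (dashed) and their middle 50% (grey), with filled points where the adjusted p is under 0.05. For KO-labelled over WT at pachytene Hspa2 (0.97), Hspa4l (0.81) and Clgn (1.16) lie right of the grey band and Calr3 (-2.38), Pdilt (-1.89) and Hspa1l (-1.82) left of it.

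The KO-labelled over WT change differed between the stages for 6 of the 10, all of them higher at pachytene than at LZ (34.9% of all genes), and for 0 in the other direction (3.49%). The difference was 2.13 for Clgn (adjusted p = 0.00493), 1.54 for Hspa2 (0.00507), 1.43 for Hspa4l (0.00866), 1.096 for Canx (0.0163), 1.08 for Hspa5 (0.0260) and 1.04 for Calr (0.0292), on the log2 scale by limma. The median over all genes was 0.72, and of the 20 pachytene genes 18 were called higher in the same way with a median of 1.83 (4 after median-ratio scaling). After median-ratio scaling Clgn alone of the 10 was called (1.20, adjusted p = 0.0434), against 2.37% of all genes higher and 4.36% lower. The calls of Hspa5 and Calr were lost in 7 and 6 of the 12 fits that left out 1 library: for both without KO-labelled LZ replicate 1, WT LZ replicates 1 and 2, KO-labelled pachytene replicates 1 and 2 or WT pachytene replicate 2, and for Hspa5 also without WT pachytene replicate 1, at 0.91 to 1.03 for Hspa5 and 0.82 to 1.08 for Calr. Without KO-labelled pachytene replicate 3 Calr3 was called in the other direction (-1.69, adjusted p = 0.0161), against -1.07 with it (0.200).

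The ratio of the FPKM of 2 genes within a library does not depend on how libraries are scaled. A total of 42 exact two-sided permutation tests were made on 7 such ratios, taken as log2 ratios of FPKM + 1, on which scale the pseudocount pulls the ratios of the scarce genes toward 0. Ranges in times are of FPKM itself. With 3 against 3 libraries the smallest p they allow is 0.1, and within strata it is 0.005. The lowest adjusted p was 0.14, so no ratio passed the correction. Tests of 3 against 3 libraries could not fall under 0.05 and still counted in that correction. The lack of a call therefore does not show that a ratio was unchanged, and the values are given as measured. Ratios over Hspa8, here and below, carry the uncertainty of its value, because most 50-base words of its transcript also occur in other genes. Hspa2 stood at 3.99 to 4.80 times Hspa8 in KO-labelled and 1.67 to 2.34 times in WT pachytene libraries, and at 0.307 to 0.408 times in KO-labelled and 0.323 to 0.519 times in WT LZ libraries. Its log2 ratio was 3.004 higher at pachytene within genotype, the same way in every library (exact permutation p = 0.005, adjusted 0.14). Clgn stood at 3.25 to 5.81 times Canx in KO-labelled and 2.45 to 3.89 times in WT pachytene libraries, and at 0.987 to 1.84 times in KO-labelled and 1.74 to 2.53 times in WT LZ libraries (stage difference 1.21, exact permutation p = 0.01, adjusted 0.14). Hspa4l against the somatic HSP110 gene Hspa4 moved less, at 1.76 to 2.13 times in KO-labelled and 2.06 to 2.44 times in WT pachytene libraries, and 1.497 to 2.02 times in KO-labelled and 1.81 to 1.94 times in WT LZ libraries. Its stage difference was 0.21 (exact permutation p = 0.03, adjusted 0.221), and the WT stages did not overlap.

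Among the scarce members the mean ratios were lower in KO-labelled cells at both stages. Calr3 stood at 0.00564 to 0.0424 times Calr in KO-labelled and 0.0709 to 0.134 times in WT pachytene libraries, and at 0.0307 to 0.0586 times in KO-labelled and 0.0591 to 0.14 times in WT LZ libraries, with no overlap at either stage. The mean log2 ratio within stage was 1.89 lower in KO-labelled cells (-5.27, against -3.38 in WT cells; exact permutation p = 0.01, adjusted 0.14). For Hspa1l over Hspa8 the difference was -1.76 (exact permutation p = 0.015, adjusted 0.158), and for Pdilt over P4hb, the main disulfide isomerase of the ER, it was -1.56 (p = 0.035, adjusted 0.221). Hspa5 stood at 0.99 to 1.60 times Hspa8 in KO-labelled and 0.676 to 0.887 times in WT pachytene libraries, with no overlap (exact permutation p = 0.1, adjusted 0.221).

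**Figure D3:**
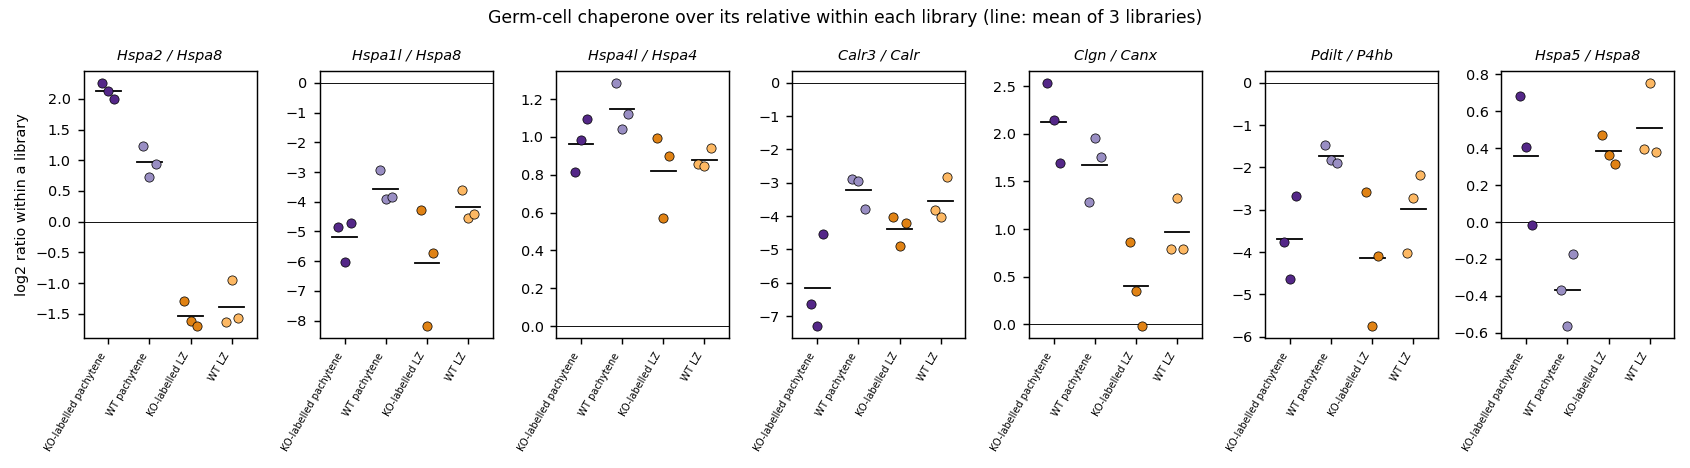
Log2 ratio (of FPKM + 1) of each testis chaperone gene to its relative, and of Hspa5 to Hspa8, within each library, with a line at the mean of 3 libraries. Hspa2 over Hspa8 lies above 0 in all 6 pachytene libraries, highest in the KO-labelled ones, and below 0 in all 6 LZ libraries. The value of Hspa8 is uncertain because its transcript shares sequence with other genes.

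Promoters of the members were compared by motifs in windows from 250 bases before to 50 bases after the annotated start, from RefSeq (GRCm38.p6), in which 8 of the 10 genes were found by symbol. Both strands were searched. The ER stress response element (CCAAT, then 9 bases of any kind, then CCACG), through which ATF6 and its partner NF-Y are known to act, was present in 3 of the 8 genes (Hspa5, Calr and Canx) and in 39 of all 32851 windows (0.119%). It contains the letters of the CCAAT box, which 7 of the 8 held (37.4% of all windows). The heat shock element, searched as GAANNTTC or TTCNNGAA, was in 0 of the 8 (15.1% of windows), the cyclic AMP response element TGACGTCA in 0 (1.79%), the MYB motif TAACNG or CAACNG in 5 (49.7%) and TATAAA in 1 (13.6%). A match is a description of letters only, and no match says only that these letters are not in the window. The 3 genes with the ER element are all ER chaperone genes, so their sharing it is not independent of how the members were chosen. The 250 bases before the start of each of these genes are shown. They are written 5′ to 3′ on the strand of the gene, at chr2:34771840-34772089 (plus strand), chr8:84846932-84847181 (minus) and chr11:50325674-50325923 (minus), with the ER element, and the MYB matches of Hspa5 and Calr, in capitals.
Hspa5: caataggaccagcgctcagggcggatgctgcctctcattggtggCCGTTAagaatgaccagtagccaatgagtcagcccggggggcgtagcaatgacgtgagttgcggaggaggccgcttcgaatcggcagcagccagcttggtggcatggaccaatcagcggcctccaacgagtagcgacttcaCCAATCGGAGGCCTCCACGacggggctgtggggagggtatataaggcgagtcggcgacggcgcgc
Calr: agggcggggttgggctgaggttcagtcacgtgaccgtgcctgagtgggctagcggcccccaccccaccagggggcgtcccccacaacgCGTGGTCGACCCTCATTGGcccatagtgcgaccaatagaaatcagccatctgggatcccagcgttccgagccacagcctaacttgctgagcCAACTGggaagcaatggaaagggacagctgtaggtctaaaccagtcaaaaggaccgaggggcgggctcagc
Canx: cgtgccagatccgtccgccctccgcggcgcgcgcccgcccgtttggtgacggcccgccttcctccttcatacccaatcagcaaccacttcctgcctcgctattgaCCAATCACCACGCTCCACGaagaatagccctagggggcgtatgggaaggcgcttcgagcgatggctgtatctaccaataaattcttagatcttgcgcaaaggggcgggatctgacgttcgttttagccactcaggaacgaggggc
The element starts 65 bases before the start of Hspa5, 162 before that of Calr, where it lies on the reverse strand, and 145 before that of Canx. Hspa5 and Calr were both called lower at pachytene after median-ratio scaling and Canx was not.

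The patterns of the abundant germ-cell members were close. Likeness was taken as the root mean square difference of log2 values over the 12 libraries after median-ratio scaling, with each gene centred on its mean, where smaller is more alike. Hspa2 and Hspa4l were 0.217 apart and Hspa2 and Clgn 0.274, where the median distance of all genes from Hspa2 was 0.879. Still, 195 other genes lay closer to Hspa2 than Hspa4l did. Hspa1l and Pdilt were each other's nearest member at 0.659, but 273 other genes lay closer to Hspa1l and 341 closer to Pdilt. Likewise 406 other genes lay closer to Clgn than Hspa2, its nearest member, did. Of all genes tested, the nearest to Hspa2 were Tex9, Rb1cc1 and Mkrn1 (0.107 to 0.108), to Hspa4l Myst2, Dhx30 and Senp2 (0.0723 to 0.0973), and to Clgn Tsnaxip1, 4932413F04Rik and Limd2 (0.107 to 0.112). The nearest to Hspa1l were Pmfbp1, Arl2bp and 4930523O13Rik (0.254 to 0.31), to Calr3 Asb9, Dynll2 and Fam3b (0.295 to 0.334), and to Pdilt Catsper3, Slc22a14 and 4930432K09Rik (0.241 to 0.294), of which Catsper3 is one of the round spermatid genes above. Near Hspa8 stood Mcm6, Snx5 and Serinc1, near Hspa5 Kif23, H2-K1 and P4hb, near Calr Ap1g1, Pacsin3 and 6430548G04, and near Canx Ankib1, Strbp and Gtf2e1, at 0.0815 to 0.217.

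The partners of these chaperones were counted in 10 lists for KO-labelled against WT cells at pachytene, where 24.6% of all genes were called higher and 14.3% lower. Several of the counts lie near those shares. Of 10 genes of HSP90 proteins and their cofactors 6 were called higher and 0 lower, among them Hsp90aa1, with 16070 ± 2060 FPKM in KO-labelled and 9185 ± 1180 FPKM in WT cells. Of 8 other HSP70 and HSP110 genes 3 were higher and 0 lower, Hspa4, the mitochondrial Hspa9 and the ER protein Hyou1. Of 14 nucleotide exchange and other HSP70 cofactors 5 were higher and 0 lower, among them Bag6, which in mice keeps HSPA2 stable (430 ± 101 FPKM in KO-labelled and 227 ± 15.6 FPKM in WT cells). Of 29 J-domain partners 9 were higher and 4 lower, both near the shares of all genes, with Dnajb2 higher and Dnajb8, Dnajb7 and Dnajc5b lower. Among heat shock factors and small heat shock proteins 3 of 9 were higher, Hspb9 and Hsf5 among them, and 2 lower, the mitochondrial chaperonin genes Hspe1 (264 ± 82.0 FPKM in KO-labelled and 775 ± 205 FPKM in WT cells) and Hspd1.

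In the ER, 5 of 16 genes of N-glycan processing were called higher at pachytene and 0 lower, against 24.6% and 14.3% of all genes, with Stt3b, Man1b1, Rpn2 and Stt3a the largest. Of 12 disulfide isomerases and oxidases 2 were higher (Erp29 and Ero1lb) and 1 lower (Pdia5). Of 13 ER stress genes 6 were higher and 2 lower. Ddit3 was higher, at 2074 ± 462 FPKM in KO-labelled and 1017 ± 203 FPKM in WT cells, and the sensor genes Eif2ak3 and Ern1, both below 3 FPKM on average, were lower. Of 17 genes listed as sperm surface proteins, 3 were higher and 6 lower, with Prss37, Adam6a, Spaca1 and Adam4 the largest decreases. Not each gene of this list is a known client or partner of calmegin, Calr3 or Pdilt. Of 10 genes listed as partners of HSPA2, 2 were higher and 3 lower. The lower ones were Ccnb1 and the transition protein genes Tnp1 and Tnp2, whose products associate with HSPA2 in spermatids. Partnership of the listed genes with HSPA2 was not tested. Bag6 is both in this list and in that of the HSP70 cofactors. Tnp1, Tnp2 and Spaca1 are also among the round spermatid genes.

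At LZ, 0 genes of any of the 10 lists were called higher in KO-labelled cells. The most called lower were J-domain partners, 15 of 29, sperm surface proteins, 6 of 17, and partners of HSPA2, 5 of 10, against 12.9% of all genes. After median-ratio scaling 0 genes of the 10 lists were called at LZ in either direction. At pachytene the same scaling called 3.57% of all genes higher and 9.62% lower. It left calls of higher for 2 of 10 genes of HSP90 proteins and their cofactors, 2 of 8 other HSP70 and HSP110 genes and 2 of 13 ER stress genes. It also left 1 each of 14 HSP70 cofactors, 16 N-glycan genes, 29 J-domain partners, 17 sperm surface proteins and 10 partners of HSPA2. The HSP70 cofactor and the partner of HSPA2 are the same gene, Bag6, which is in both lists. Calls of lower were left for 3 of 17 sperm surface proteins, 3 of 10 partners of HSPA2, 3 of 29 J-domain partners, 2 of 12 disulfide isomerases and oxidases and 2 of 9 heat shock factors and small heat shock proteins.

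**Figure D4:**
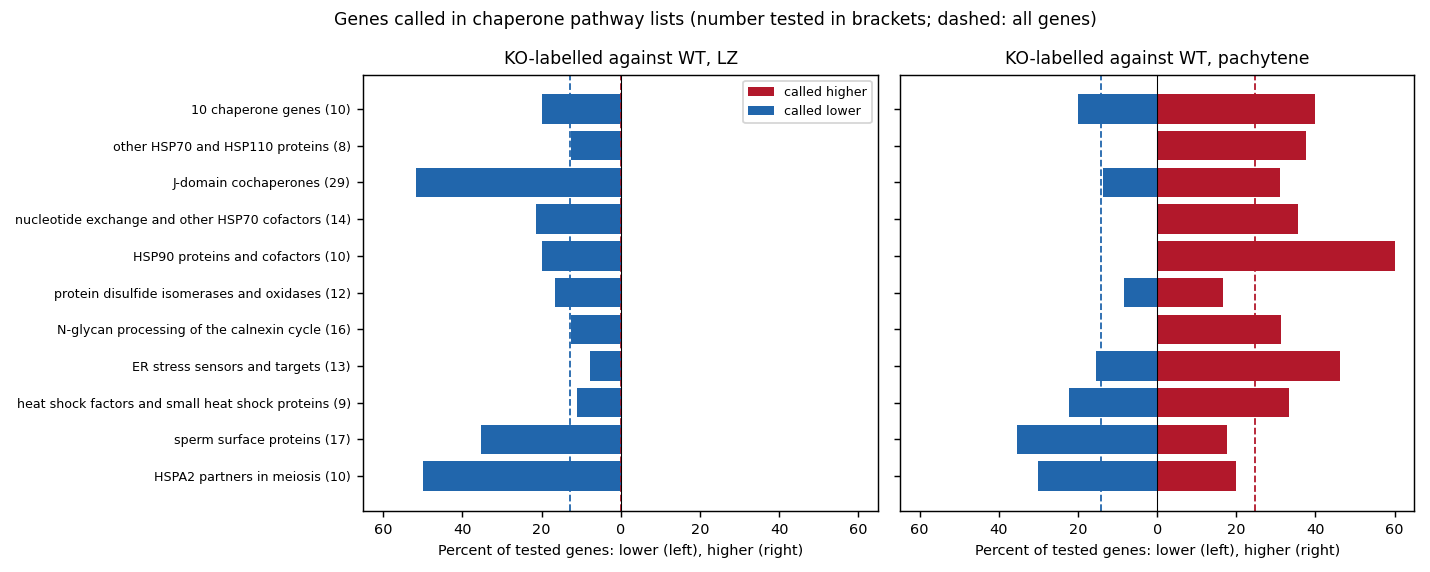
Percent of the tested genes of each list called higher (right, red) or lower (left, blue) in KO-labelled against WT cells at LZ and at pachytene, with dashed lines at the percent of all genes. At pachytene 4 of the 10 chaperone genes were called higher and 2 lower, and 6 of 10 genes of HSP90 proteins and their cofactors higher.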

How the data were processed

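The deposited table holds FPKM per gene in 12 libraries, normalized by the authors with ERCC spike-in RNA according to the table's name. The submitters' processing notes name TopHat2 2.1.1, Cufflinks 2.2.1 and the mouse build mm9. The annotation, filters, strand and formula of the scaling are not given in the sources used here. A total of 4 unnamed columns were not used. Depth is unknown, so no interval from counts is given.

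Genes with at least 1 FPKM in at least 3 of 12 libraries (15400 of 23235) entered a limma 3.58.1 fit (R 4.3.3) of log2(FPKM + 1) with 1 mean per group and variances that follow the mean. Fold changes on this scale understate the change of low genes. The code of the fit was run on simulated data with changes put into some genes and no shift between libraries. The deposited values do shift between groups, so that run does not test the calls made here. Alternatives were 2 other scalings, pseudocounts of 0.1 and 5, no filter and a filter of 5, only the groups compared, a replicate block, and each library left out. The members and lists were chosen with earlier results of these data known. Named genes are the 10 members and Rnaseh1, up to 4 called genes with the largest change per partner list, and the 3 most alike genes per member. Ratio pairs and the highest marker gene of a list are named as well, and antisense or look-alike Gm genes come from the annotation. Chromosomes, shared 50-base words and antisense overlaps came from GENCODE and RefSeq tables of GRCm38, a later build than mm9.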

Additional observations from a re-analysis of the deposited data

Results flagged for a closer look

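For 6 chaperone genes the change of KO-labelled against WT cells differed between pachytene and LZ by the interaction term of the limma fit. The difference (pachytene change minus LZ change, log2) was 1.54 for Hspa2, 1.43 for Hspa4l, 1.08 for Hspa5, 1.04 for Calr, 1.096 for Canx and 2.13 for Clgn, where the median of all genes was 0.72. The same difference was called for 18 of the 20 pachytene marker genes, with a median of 1.83, and the part of stage composition was not tested. In Hspa2, Hspa4l and Clgn all KO-labelled libraries lay above the WT libraries at pachytene and below them at LZ. The library sums over all genes were separated in the same way, and the share of all genes so separated was not counted. After median-ratio scaling the difference passed for Clgn of these 6 (1.20, adjusted p = 0.0434).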

How the results depend on the processing

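Members called are counts of the 10 chaperone genes, and the cause of each shift was not tested. The scaling between libraries had the widest effect. For KO-labelled against WT at LZ, 0 were called lower under median-ratio scaling or as shares of the library sum, against 2. The log2 change turned to 0.021 and 0.11 (median-ratio scaling, then shares) for Hspa2, 0.18 and 0.27 for Hspa8, 0.053 and 0.15 for Hspa5, 0.11 and 0.20 for Calr, and 0.19 and 0.28 for Canx, and as shares to 0.056 for Hspa4l. At pachytene, calls of higher were 2 and 0, against 4, and as shares Hspa5 turned to -0.032 and Calr to -0.010. For pachytene over LZ in WT, calls of higher were 3 and 1, against 7, and of lower 3 and 3, against 0. The change turned to -0.54 and -0.81 for Hspa1l, -1.19 and -1.48 for Hspa8, -1.31 and -1.59 for Calr, -0.93 and -1.20 for Calr3, and -0.69 and -0.95 for Pdilt, and as shares to -0.20 for Canx. In KO-labelled cells, calls of higher were 3 and 3, against 8, and of lower 4 and 4, against 0. The change turned to -0.63 and -1.17 for Hspa1l, -1.90 and -2.51 for Hspa8, -1.93 and -2.53 for Hspa5, -1.20 and -1.81 for Calr, -2.75 and -3.14 for Calr3, and -1.22 and -1.65 for Pdilt, and as shares to -0.35 for Canx. For the difference between stages, calls of higher were 1 and 0, against 6, and as shares 1 was lower. The difference turned to -0.092 and -0.36 for Hspa1l and -0.71 and -1.03 for Hspa8, and as shares to -0.18 for Hspa5, -0.21 for Calr and -0.15 for Canx. Over all genes, calls numbered 2013, 5980, 12530, 12266 and 5919 in the comparisons in this order, and 166, 2032, 5883, 9386 and 1036 under median-ratio scaling.

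With a pseudocount of 0.1, 1 gene was called lower at LZ and 1 at pachytene in KO-labelled cells, the stage change of Calr3 in KO-labelled cells was -0.000446 and the difference between stages of Pdilt 0.29. With a pseudocount of 5, 0 were called lower at LZ, the difference of Hspa1l was -0.041, and Pdilt over P4hb changed by -0.054 between stages in KO-labelled cells. With no filter 0 were called lower at LZ and 1 at pachytene, and with only the groups compared 0 at LZ. The filter of 5 kept the side of every call and every sign.

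Leaving out 1 library gave 0 to 3 genes called lower at LZ, 1 to 6 called higher and 1 to 3 lower at pachytene in KO-labelled cells, and 0 to 1 lower for the difference between stages. Signs turned within -0.56 to 1.21 for the difference of Hspa1l and -0.95 to 0.70 for that of Pdilt. The stage change ranged over -0.60 to 0.51 for Calr3 in KO-labelled cells and -0.22 to 0.13 for Hspa5 in WT cells. Among log2 ratios, Hspa1l over Hspa8 ranged over -0.19 to 1.76, Pdilt over P4hb over -0.37 to 1.22 and Hspa5 over Hspa8 over -0.19 to 0.16 between stages in KO-labelled cells. At LZ, Hspa4l over Hspa4 ranged over -0.14 to 0.068 and Hspa2 over Hspa8 over -0.28 to 0.063, and within stage Clgn over Canx over -0.17 to 0.050. Over all genes, the 5381 called higher for the difference between stages fell to 3395 without KO-labelled pachytene replicate 1, and the 538 called lower to 353 in that fit, 344 without WT pachytene replicate 1 and 333 without WT LZ replicate 2.

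The replicate numbers do not pair the libraries by the labels. Deviations of same-numbered KO-labelled and WT libraries correlated at -0.000619, 0.219 and 0.0582 at LZ and -0.0758, 0.0803 and -0.167 at pachytene, and 1 of 3 correlated best with its own number at each stage. Across the stages the correlations were 0.027 to 0.163 in WT and 0.0827 to 0.259 in KO-labelled cells. With a replicate block 4 genes were called lower at LZ, Calr3 and Pdilt besides Hspa1l and Clgn, and 3 lower at pachytene, with Hspa1l. The block also brought calls of higher at pachytene than at LZ for Hspa1l in WT (adjusted p = 0.0083) and for Pdilt in WT (0.0432) and KO-labelled cells (0.0488).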

Other observations

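Between the stages, the partner lists moved with the bulk of genes on the spike-in scale. In KO-labelled cells all 10 genes of HSP90 proteins and their cofactors, all 14 nucleotide exchange and other HSP70 cofactors and all 16 genes of N-glycan processing were called higher at pachytene than at LZ, against 76.8% of all genes. After median-ratio scaling 17 of 29 J-domain partners were called higher and 6 lower in KO-labelled cells, and 3 higher and 3 lower in WT cells, where 31.7% of all genes were higher and 29.3% lower in KO-labelled and 20.4% and 17.8% in WT cells. Of 12 disulfide isomerases and oxidases 1 was called higher and 8 lower in KO-labelled cells, and 1 higher and 7 lower in WT cells. The J-domain gene Dnajc5g had log2 changes of 5.501 in KO-labelled and 3.73 in WT cells. The heat shock factor gene Hsf5 had a change of 5.25 in KO-labelled cells, and 2.32 after median-ratio scaling.

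Other cell types were read from fixed markers. The summed level of 18 Sertoli cell genes was 0.253 to 0.520% of the library sum in KO-labelled LZ and 0.181 to 0.251% in WT LZ libraries, and 0.0308 to 0.0513% in KO-labelled pachytene and 0.118 to 0.146% in WT pachytene libraries. Leydig cell genes (11) took 0.0610 to 0.123% in KO-labelled and 0.101 to 0.260% in WT pachytene libraries. Their part in the levels of the chaperone genes was not tested.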
